A study of Mus musculus with 90 samples.

Results

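The mouse mitochondrial genome encodes 13 proteins, all of them subunits of the respiratory chain or of ATP synthase, and 10 of their genes are described here in 3 brain regions of male mice: mt-Nd1, mt-Nd2, mt-Nd4, mt-Nd5 and mt-Nd6 of complex I, mt-Cytb of complex III, mt-Co1, mt-Co2 and mt-Co3 of complex IV, and mt-Atp6 of complex V. They were chosen by name: a row of the count table was taken where its Ensembl identifier maps to one of those symbols. All 10 were found among the 37991 gene identifiers of the table, which hold 37 mitochondrially encoded genes in all, and all 10 passed the filter on low counts in every comparison.

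The residents were C57BL/6J males that held a territory in a cage shared with 1 C57BL/6J female, which was taken out before the test. Intruder animals were shown an unfamiliar BALB/cJ male inside a wire mesh cage for 5 min. Control animals were shown the same mesh cage with a paper cup in it for the same time. Amygdala, hypothalamus and frontal cortex were dissected 30, 60 or 120 min later, which gives 18 groups of 5 libraries, except 3 for the 30 min hypothalamus controls and 6 for each of the 120 min frontal cortex groups. The 90 libraries come from 32 animals by their labels, 28 of them with all 3 regions. Within a region each library is from a different animal by its label, so p-values there measure the spread between animals. The main tests between regions have no term for animal, so libraries of the same animal count as independent in them. The design text also says that RNA was pooled to make libraries, and does not say whether that means RNA of several animals. It names 1 method of killing for all residents, whereas the column headers of the count table carry the mark ISO on all 28 libraries of 30 min and CERV on all 62 of 60 and 120 min. What the marks mean is not given in the sources used here, and any difference they stand for cannot be told apart from that between 30 min and the later times.

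Complexes I, III and IV pump protons across the inner mitochondrial membrane as they pass electrons to oxygen, and complex V, ATP synthase, uses the resulting gradient to make the ATP on which firing neurons depend. Each of these complexes combines subunits encoded in mitochondrial DNA with subunits encoded in the nucleus, while complex II is encoded in the nucleus alone. Mitochondrial genes are transcribed as long precursors from both DNA strands and cut at the tRNAs that separate them. The mRNAs are then polyadenylated, and for several of them the added tail supplies the missing end of the stop codon; mt-Nd6, the only protein gene on the light-strand transcript, is known to lack a stable tail.

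The libraries were made by poly(A) selection, and the 3' ends of 5 members are shown because 3 of these genes encode only part of a stop codon, which the tail completes, and the other 2 overlap. Whether these ends bear on the measured levels was not tested. The sequences are the last 30 bases of each gene on chromosome M in GRCm38, read 5′ to 3′ on the gene's own strand, with the bases of the stop codon that the genome itself encodes in capitals. The files name the earlier build NCBIM37, so these positions belong to GRCm38 with the GENCODE M21 annotation and not to the counting.
mt-Nd4 (chrM:11515-11544, plus strand): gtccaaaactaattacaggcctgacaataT
mt-Co3 (chrM:9361-9390, plus strand): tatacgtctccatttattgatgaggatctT
mt-Cytb (chrM:15259-15288, plus strand): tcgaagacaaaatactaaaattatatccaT
mt-Nd5 (chrM:13536-13565, plus strand): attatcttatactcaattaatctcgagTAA
mt-Nd6 (chrM:13552-13581, minus strand): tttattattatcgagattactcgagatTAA
mt-Nd4, mt-Co3 and mt-Cytb end in a lone T, and polyadenylation completes their stop codon. The other 7 members, mt-Nd5 and mt-Nd6 among them, end in a whole stop codon as annotated. The ends of mt-Nd5 and mt-Nd6 face each other on opposite strands and share 14 bases. Reads on those bases can be told apart only if the counting used the strand, which the sources used here do not state. If it did not, reads from the opposite strand anywhere in mt-Nd6 would count for it too.

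None of the 10 genes has an intron. In GRCm38 mt-Nd1 spans bases 2751 to 3707 of chromosome M, mt-Nd2 3914 to 4951, mt-Co1 5328 to 6872, mt-Co2 7013 to 7696, mt-Atp6 7927 to 8607, mt-Co3 8607 to 9390, mt-Nd4 10167 to 11544, mt-Nd5 11742 to 13565 and mt-Cytb 14145 to 15288, all on the plus strand. mt-Nd6 lies on the minus strand at 13552 to 14070. Its composition is the reverse of the others, with 28.1% G and 6.0% C, whereas G makes up 8.0 to 16.1% of each other member. mt-Atp6 shares 43 bases with mt-Atp8 and 1 with mt-Co3, and mt-Nd4 shares 7 with mt-Nd4l. With tRNA genes, mt-Nd1 shares 2 bases (mt-Ti) and mt-Nd2 2 (mt-Tw) on the same strand, and mt-Co1 3 (mt-Ts1) on opposite strands. Several members also have near-identical copies among other annotated transcripts. Every 50-base window of mt-Co2, 99.9% of those of mt-Co3 and 99.5% of those of mt-Atp6 occur in another GENCODE M21 transcript, against 62.2% for mt-Nd4, 51.1% for mt-Co1, 8.2% for mt-Nd2, 7.6% for mt-Nd5 and 0 for mt-Nd1, mt-Nd6 and mt-Cytb. Reads that aligned in more than 1 place, 9.79 to 11.5% of the row totals per library, were not assigned to genes. The levels of mt-Co2, mt-Co3, mt-Atp6, mt-Nd4 and mt-Co1 are therefore uncertain relative to those of the other members.

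Libraries held 38601039 to 58858458 reads on genes. Region markers were checked first. The summed level of 5 hypothalamus markers was 315 to 914 CPM (counts scaled to a TMM-adjusted library size of 1000000) in hypothalamus libraries against 1.08 to 11.2 in the others, and that of 5 cortex markers was 483 to 897 CPM in frontal cortex against 263 to 400 elsewhere. The 5 amygdala markers overlapped between amygdala (456 to 920 CPM) and frontal cortex (172 to 608 CPM), so they do not separate those regions. No pair of libraries in a group agreed within sampling noise (chi-square per degree of freedom 4.2 to 109 over 183 pairs).

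The 10 genes took a large part of the reads in every library, and a smaller part in hypothalamus. Their share of gene reads was 5.19 to 6.41% in hypothalamus (median 5.76%), 6.57 to 9.48% in amygdala (median 7.33%) and 7.0 to 9.02% in frontal cortex (median 7.83%), with no overlap between hypothalamus and either other region. Group means ran from 5.66% ± 0.287 (SD, n = 5) in the 120 min intruder hypothalamus to 8.63% ± 0.7 (SD, n = 5) in the 60 min intruder frontal cortex. The spread between animals was widest in the 60 min amygdala controls, at 7.8% ± 1.01 (SD, n = 5). The number of reads behind each member was high: the lowest library had 690816 reads on mt-Co1, 104990 on mt-Nd5 and 17193 on mt-Atp6. mt-Nd6 was the exception, with 1024 to 4679 reads per library. It was also the most variable member, with a median coefficient of variation within groups of 24.2% against 5.55 to 8.64% for the other 9.

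**Figure D1:**
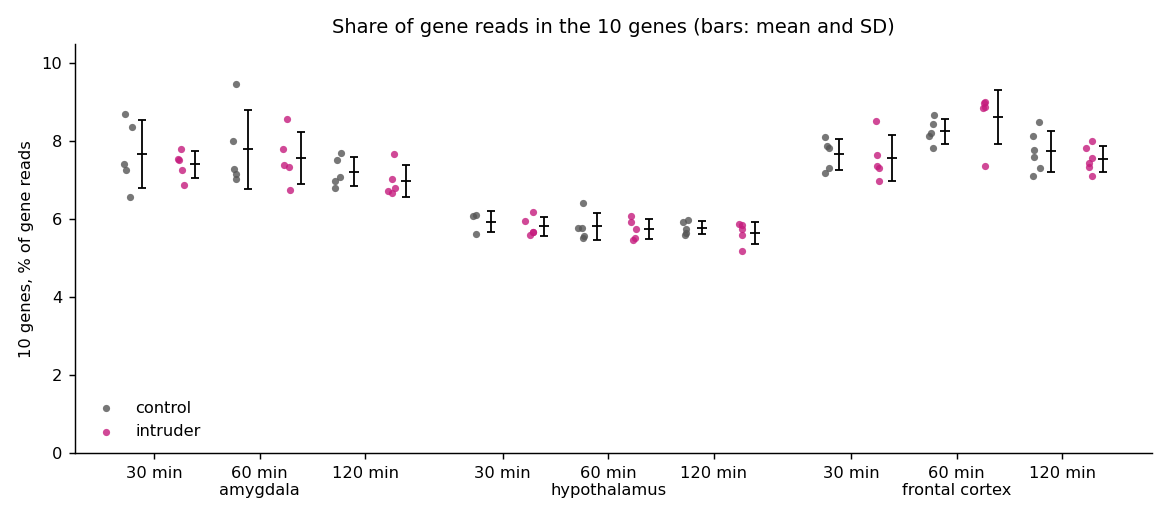
Share of gene reads in the 10 genes (y axis, %) in each of the 90 libraries (points), by region, time and condition, with the mean and SD of each group as bars. Hypothalamus libraries (5.19 to 6.41%) lie below all amygdala and frontal cortex libraries, and control and intruder points overlap in every pair of groups.

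Per kilobase of gene, the complex IV genes had the highest levels. The median over the 90 libraries was 14790 CPM per kb for mt-Co1, the subunit that holds the oxygen-reducing centre of complex IV, 11910 for mt-Co3 and 10920 for mt-Co2, the subunit that accepts electrons from cytochrome c. mt-Co1 was above mt-Co3 in 89 of 90 libraries and mt-Co3 above mt-Co2 in 89 of 90, although the ratio of the latter pair had a median of 1.07 and both are among the genes with copies elsewhere. mt-Cytb, the cytochrome b of complex III, followed at 7321 CPM per kb. The complex I genes spread more widely. mt-Nd4 (6608 CPM per kb) and mt-Nd1 (6487) could not be ordered, with mt-Nd4 above mt-Nd1 in 52 of 90 libraries. mt-Nd2 came next at 4494 CPM per kb, below mt-Nd1 in all 90 libraries, and mt-Nd5 followed at 2363, below mt-Nd2 in all 90. mt-Atp6, the proton channel subunit of ATP synthase, stood at 1016 CPM per kb and mt-Nd6 at 82.62, which puts mt-Atp6 a median 12.0 times higher (5.25 to 21.2). Of the 3 other protein genes of the mitochondrial genome, mt-Nd3 had 30501 to 73828 reads per library, mt-Atp8 745 to 2319 and mt-Nd4l 0 to 3. The share of their 50-base windows that occur in another transcript is 98.0% for mt-Nd3, 0.0% for mt-Atp8 and 98.8% for mt-Nd4l. The part of copies in these counts was not tested.

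**Figure D2:**
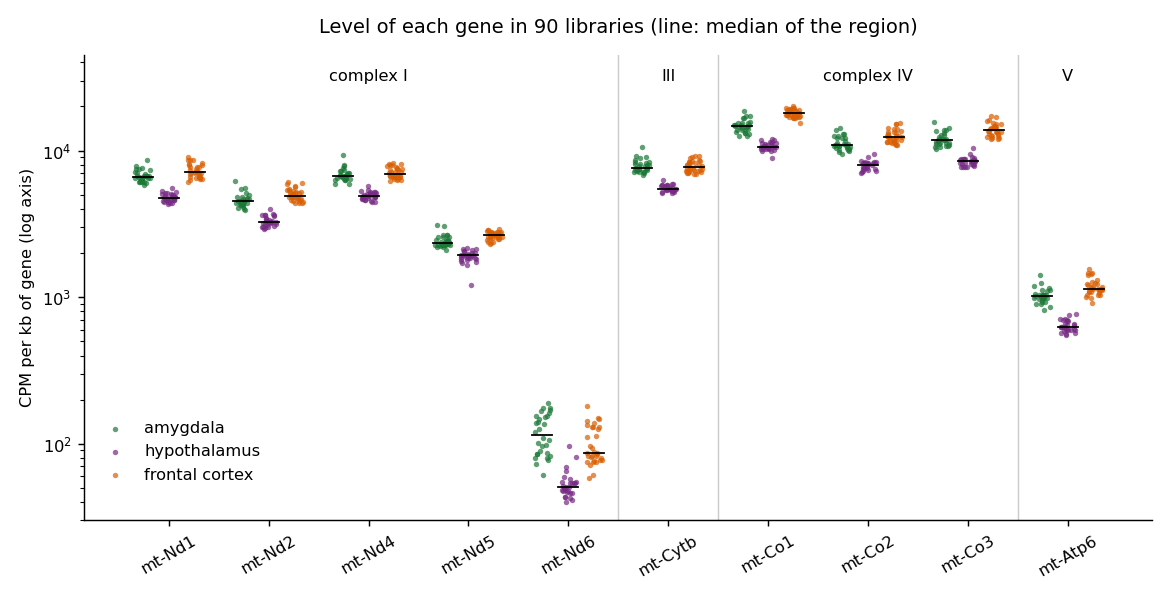
Level of each gene in CPM per kb of gene (y axis, log scale) in the 90 libraries (points), coloured by region, with the region's median as a line. The complex IV genes lie highest and mt-Nd6 lowest, with hypothalamus points below those of the other regions for most genes.

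All 10 genes were lower in hypothalamus than in amygdala and than in frontal cortex. Differences were tested with edgeR's quasi-likelihood test in 1 fit of the 90 libraries, with Benjamini-Hochberg adjustment over the 18337 genes tested and a call at an adjusted p below 0.05. That fit ignores the pairing of regions within animals, so its p-values do not measure the spread between animals alone. Regions differed in most genes: 80.1% of those tested were called between hypothalamus and amygdala (40.6% lower in hypothalamus), 87.4% between hypothalamus and frontal cortex (42.2% lower) and 76.7% between amygdala and frontal cortex (35.4% lower in amygdala and 41.3% higher). A call alone therefore says little about the members, and sizes are given beside it. The median log2 fold change of the members was -0.49 from amygdala to hypothalamus and -0.63 from frontal cortex to hypothalamus, against -0.01 and 0.02 over all genes tested. Regardless of sign, the median size was 0.49 and 0.63 for the members and 0.27 and 0.42 over all genes. Between amygdala and frontal cortex the members' median size of 0.15 was below the 0.22 of all genes. In this bulk tissue, fewer cells of a type and less RNA per cell cannot be told apart.

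Among the complex I genes, mt-Nd1, a core subunit of the membrane arm, ranged over 4139 to 5311 CPM in the 28 hypothalamus libraries (median 4566), 5587 to 8275 in the 30 of amygdala (median 6333) and 5846 to 8616 in the 32 of frontal cortex (median 6810). Its hypothalamus libraries lay below all others. The log2 fold change was -0.61 (SE 0.031, adjusted p = 5.33e-31 by edgeR's quasi-likelihood test) against frontal cortex. mt-Nd2 (-0.47 against amygdala, -0.60 against frontal cortex) and mt-Nd4 (-0.48 and -0.52), both proton-pumping subunits, differed by similar amounts. mt-Nd5, the distal pumping subunit, differed less: its median was 3511 CPM in hypothalamus (2216 to 3918), 4295 in amygdala (3797 to 5637) and 4820 in frontal cortex (4218 to 5334), with log2 fold changes of -0.35 (SE 0.032) and -0.47 (SE 0.032). mt-Nd6 differed most from amygdala. It ranged over 20.68 to 50.19 CPM in hypothalamus (median 26.28), 31.76 to 98.26 in amygdala (median 59.52) and 30.31 to 93.21 in frontal cortex (median 44.86), so libraries overlapped. Its log2 fold change was -1.13 (SE 0.1, adjusted p = 2.06e-17) against amygdala and -0.90 (SE 0.098, adjusted p = 1.57e-13) against frontal cortex.

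mt-Cytb ranged over 5874 to 7256 CPM in hypothalamus (median 6242), 7818 to 12010 in amygdala (median 8747) and 7935 to 10460 in frontal cortex (median 8839). Hypothalamus libraries again lay below the rest, with a log2 fold change of -0.50 (SE 0.029) against each other region. Between amygdala and frontal cortex mt-Cytb differed by less than its error (0.005, SE 0.028, adjusted p = 0.871). The complex IV genes differed more against frontal cortex than against amygdala. mt-Co1 ranged over 13790 to 18650 CPM in hypothalamus (median 16410), 19390 to 28710 in amygdala (median 22640) and 23810 to 30940 in frontal cortex (median 27740). Its log2 fold change in hypothalamus was -0.46 (SE 0.028) against amygdala and -0.75 (SE 0.028, adjusted p = 1.48e-39) against frontal cortex, and it was -0.29 (SE 0.027, adjusted p = 3.01e-16) in amygdala against frontal cortex. mt-Co3, which has no metal centre of its own, differed by -0.50 and -0.72 in hypothalamus, and mt-Co2 by -0.50 and -0.66. mt-Atp6 showed the widest gap after mt-Nd6, with 373.7 to 520.3 CPM in hypothalamus (median 429.3), 552.9 to 969.1 in amygdala (median 695.3) and 623.1 to 1065 in frontal cortex (median 777.3). No hypothalamus library reached the lowest of the others, and the log2 fold change was -0.68 (SE 0.038, adjusted p = 6.56e-28) against amygdala and -0.88 (SE 0.038, adjusted p = 1.79e-35) against frontal cortex.

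Libraries did not overlap at all for 6 of the 10 members between hypothalamus and amygdala and for 9 of 10 between hypothalamus and frontal cortex, the exception being mt-Nd6. Of all genes tested, 14.8% and 27.3% had no overlap in these comparisons. Within single animals the order was the same: in 28 of 28 animals each of the 10 members was lower in hypothalamus than in amygdala, and in 28 of 28 each of 9 members was lower than in frontal cortex, with 26 of 28 for mt-Nd6. Amygdala and frontal cortex were closer. There 8 of 10 members were called, 7 lower in amygdala (log2 fold changes -0.29 to -0.12) and mt-Nd6 higher (0.24, SE 0.093, adjusted p = 0.0188), while mt-Nd4 (-0.05, adjusted p = 0.116) and mt-Cytb were not called, and libraries overlapped for all 10 (6.33% of all genes had no overlap). The mt-Nd6 call was lost without the 30 min libraries (log2 fold change 0.19, adjusted p = 0.137) and without those of 60 min (0.13, adjusted p = 0.299). mt-Co1 was lower in amygdala in 29 of the 30 animals with both regions, and mt-Cytb in 15 of 30.

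The balance between members also differed by region, which the level of any single gene does not show. mt-Co1 stood at 2.86 to 3.33 times the CPM of mt-Cytb in frontal cortex (median 3.11), against 2.25 to 2.68 times in amygdala (median 2.56) and 2.35 to 2.75 times in hypothalamus (median 2.63). Frontal cortex did not overlap with either, and the ratio was higher in frontal cortex in 30 of 30 animals against amygdala and in 28 of 28 against hypothalamus. The ratio of mt-Co1 to mt-Nd4 was also highest in frontal cortex by median (2.85, with 2.45 in both other regions), but its range of 2.64 to 3.08 overlapped those of amygdala (2.11 to 2.68) and hypothalamus (2.22 to 2.68). The share of mt-Cytb among member reads was correspondingly a median of 10.7% in frontal cortex, 12.1% in amygdala and 11.8% in hypothalamus. Hypothalamus stood apart in mt-Atp6, whose CPM was 0.0835 to 0.104 of that of mt-Nd1, below the 0.105 to 0.128 of frontal cortex in 28 of 28 animals and below amygdala (0.0974 to 0.127) in 27 of 28. These ratios were picked after the values were seen and are descriptions, with no test.

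**Figure D3:**
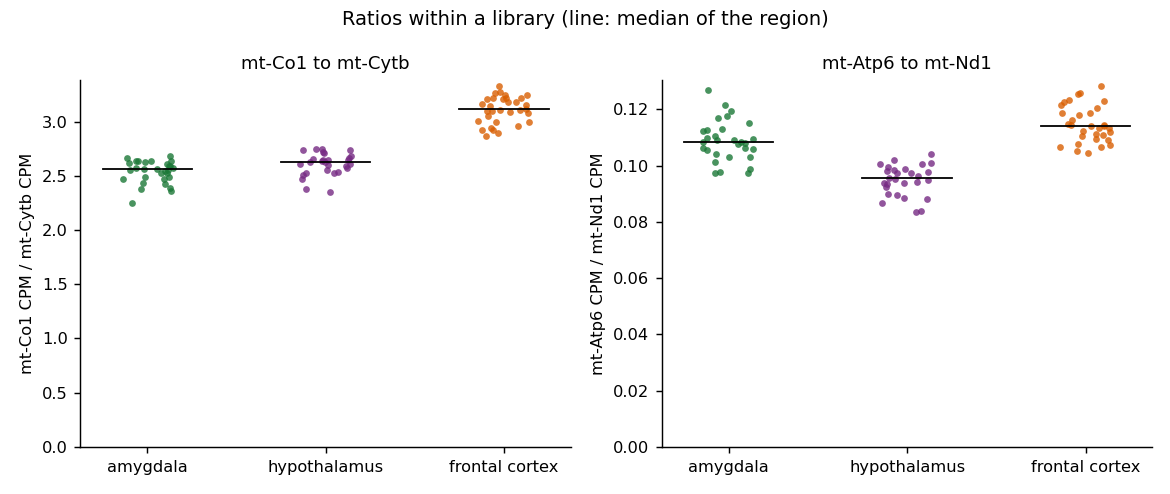
Ratios of CPM between members within each library (y axes, from 0; points are libraries, lines region medians) by region. Frontal cortex libraries lie above both other regions for mt-Co1 to mt-Cytb, and hypothalamus libraries lie below frontal cortex for mt-Atp6 to mt-Nd1.

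Region was largely tied to the index sequences of the libraries as well. Of the leading indexes, the first of each library's pair in the labels, only 2 were shared between regions. Within one, 6 amygdala libraries had a mt-Co1 to mt-Cytb ratio of 2.38 to 2.66 and 2 frontal cortex libraries 3.1 and 3.11. Within the other, 6 frontal cortex libraries had 3.08 to 3.27 and 2 hypothalamus libraries 2.68 and 2.72, with member shares of 7.11 to 8.5% and 5.61 to 5.69% of gene reads. Amygdala and hypothalamus shared no leading index, so between them index and region cannot be told apart.

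Among the nucleus-encoded partners of these subunits, those of complex IV were the most uniformly lower in hypothalamus. Of the 11 complex IV genes tested, 10 were lower in hypothalamus than in amygdala and 0 higher (median log2 fold change -0.28), and all 11 were lower than in frontal cortex (median -0.58). Cox6a1 (-0.66 and -1.15) and Cox8a (-0.54 and -1.04), small structural subunits of complex IV, were among them. For complex V, 11 of 15 were lower than in amygdala (median -0.10) and 15 of 15 lower than in frontal cortex (median -0.23). Complex I was mixed against amygdala, with 17 of 36 lower and 9 higher (median -0.05), and 28 lower and 3 higher against frontal cortex (median -0.17); Ndufb9 was lower (-0.47 and -0.74) and Ndufb2 higher (0.29 and 0.43). For complex III, 4 of 9 and 8 of 9 were lower, and none of the 9 was called higher. Complex II, which has no mitochondrially encoded subunit, had 2 of 4 higher and 0 lower than in amygdala (median 0.04), and 1 higher and 2 lower than in frontal cortex (median -0.06), with Sdha at 0.24 and 0.30. Of all genes 80.1% were called against amygdala, 40.6% as lower, and 87.4% against frontal cortex, 42.2% as lower, so the counts for complexes I and III against amygdala and for complex II are near or below those of all genes.

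Genes that act on the mitochondrial genome and its RNA went both ways. Of 17 genes of mitochondrial transcription and replication, 7 were higher and 5 lower in hypothalamus than in amygdala, and 12 higher and 4 lower than in frontal cortex. Of all genes 80.1% and 87.4% were called in these comparisons, so a call alone says little about the list. Polg, the polymerase that copies mitochondrial DNA, was lower (-0.40 and -0.54), as was Tfb2m, a transcription initiation factor (-0.26 and -0.46). Of 16 genes of mitochondrial RNA processing, stability and decay, 5 were higher and 8 lower than in amygdala. Lrpprc, which stabilises mitochondrial mRNAs, was higher (0.21 and 0.56), whereas more of that list was lower than higher against amygdala. The mitochondrial rRNAs, which come from the same heavy-strand transcripts as 9 members, were lower in hypothalamus, mt-Rnr1 by -0.46 and -0.53 and mt-Rnr2 by -0.22 and -0.17. Among regulators of mitochondrial content, Esrra (-0.50 and -1.10) and Ppargc1a (-0.27 and -0.36) were lower and Nrf1 was higher (0.21 and 0.23).

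Cell type markers moved with region beside the members. The summed CPM of 5 neuron markers was 2280 to 3060 in hypothalamus, 3370 to 4610 in amygdala and 5300 to 6870 in frontal cortex, in the same order of regions as the members' shares by median. The 5 oligodendrocyte markers were highest in hypothalamus by median, at 4550 to 7750 CPM against 1750 to 6210 in amygdala and 2210 to 6380 in frontal cortex, and all 5 were called higher in hypothalamus against each region. All 5 microglia markers and all 4 red cell markers were called lower against each region. Endothelial markers followed the members' order by median, with 80.1 to 160 CPM in hypothalamus (median 134), 104 to 220 in amygdala (median 169) and 169 to 254 in frontal cortex (median 218), and 4 of 5 were called lower than in amygdala and 5 of 5 lower than in frontal cortex. Of 5 astrocyte markers, 2 were called lower than in amygdala, and 4 higher and 1 lower than in frontal cortex. None of these markers was at 0 in all libraries of any group, and their part in the regional difference was not tested.

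Over the 18 group means, each of 9 members correlated with the mean of the others at r = 0.955 to 0.989, and mt-Nd6 at 0.825. The 5 genes outside the mitochondrial genome whose group means of log2(CPM + 1) were most like the mean of the members were Pdgfb (r = 0.995), Prr7 (0.993), Rasl10b (0.993), Tesc (0.991) and Neurl1a (0.991), over 18 groups that share 3 regions and, in part, animals. Pdgfb, for example, had mean levels of 9.92 CPM in hypothalamus, 26.9 in amygdala and 32.4 in frontal cortex.

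With time after the exposure, 8 of the 10 members were called at some step in frontal cortex, and mt-Nd5 and mt-Nd6 at none. Between 30 and 60 min, 8 of 10 were called higher in intruder animals and 2 of 10 in controls, in a fit of the region's 32 libraries over 17091 genes. Frontal cortex differed widely between these times: 45.5% of all genes were called in intruder animals (22.3% higher) and 35.4% in controls (17.2% higher). Between 60 and 120 min, 7 of 10 members were called lower in intruder animals, where 22.9% of genes were called (10% lower), and 0 of 10 in controls, where 15.9% were called. Over the 3 times together, 7 of 10 members were called in intruder animals (46.1% of all genes) and 1, mt-Nd4, in controls (33.4%). Beside the 0 of 60 to 120 min in controls were 2 members, mt-Co3 and mt-Atp6, with an unadjusted p below 0.05. Between 30 and 120 min none was called in either condition (edgeR; 0 with an unadjusted p below 0.05), against 17.7% of all genes in intruder animals and 4.42% in controls. Whether the intruder effect in frontal cortex differed between times was tested directly. It called 0 of 10 members (smallest adjusted p = 0.971 by edgeR's quasi-likelihood test, 0 with an unadjusted p below 0.05) and 0 of all genes. Unequal counts of calls in the 2 conditions thus do not show a difference between them.

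mt-Nd1 had 6219.6, 6713, 6590, 6187 and 7767 CPM in the 30 min intruder libraries. At 60 min it had 6280, 8266, 8302, 8616 and 8311 CPM, and at 120 min 5846 to 6859. At 60 min 4 of the 5 animals were above every 30 and 120 min intruder library and animal 1 was not. The log2 fold change was 0.24 (SE 0.072, adjusted p = 0.00753 by edgeR's quasi-likelihood test) from 30 to 60 min and -0.31 (SE 0.069, adjusted p = 0.00398) from 60 to 120 min. In controls mt-Nd1 had 6986, 7095, 6319, 6322 and 6713 CPM at 30 min, and 7876, 7359, 7209.9, 7678 and 7369.8 CPM at 60 min, which do not overlap. The difference there was 0.16 (SE 0.072, adjusted p = 0.0921) and was not called.

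Other complex I genes split. mt-Nd2 and mt-Nd4 were the members called in controls, by 0.18 (SE 0.065, adjusted p = 0.0269) and 0.19 (SE 0.059, adjusted p = 0.0131), and their 30 and 60 min control libraries did not overlap, as for mt-Nd1. That made 3 of 10 members, beside 24.5% of all genes. In intruder animals they rose by 0.24 (adjusted p = 0.00323) and 0.20 (adjusted p = 0.0058). mt-Nd5 was not called at any step: it differed by 0.04 from 30 to 60 min in both conditions (SE 0.059; approximate 95% intervals of -0.08 to 0.15), with 4304 to 5068 CPM in the 30 min and 4648 to 5229 in the 60 min intruder libraries. mt-Nd6 was not called either, at -0.27 (SE 0.25) in intruder animals, with 42.58 to 93.21 CPM at 30 min and 40.29 to 67.79 at 60 min. Whether mt-Nd5 differs in its change from the other members was not tested.

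mt-Cytb rose by 0.20 in intruder animals (SE 0.062, adjusted p = 0.00893). The complex IV genes rose by 0.27 for mt-Co3 (SE 0.066, adjusted p = 0.00128), 0.24 for mt-Co2 (adjusted p = 0.00358) and 0.15 for mt-Co1 (SE 0.055, adjusted p = 0.0269). The mt-Co1 call was the least firm and was lost when any of 6 of the 10 libraries compared was left out (adjusted p up to 0.0997). mt-Co3 had 9882, 10520.3, 9799, 9375 and 11533 CPM at 30 min and 10127, 13281.5, 12552, 13403 and 12696 at 60 min in intruder animals. It returned to 9382 to 11274 CPM at 120 min, a log2 fold change of -0.28 (SE 0.063, adjusted p = 0.00398). mt-Atp6 showed the largest fitted changes, with 723.4, 754.7, 757.2, 709.0 and 885.6 CPM at 30 min and 702.3, 994.6, 1065, 975.5 and 987.9 at 60 min. It rose by 0.29 (SE 0.087, adjusted p = 0.00617) and then fell by 0.34 (SE 0.083, adjusted p = 0.00631).

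The 60 min intruder animal 1 had the lowest level of its group for all 10 members. No member's 30 and 60 min intruder libraries were free of overlap, against 19.2% of all genes. Its choroid plexus markers summed to 240 CPM against 11.8 to 22.9 in the other 4, its reads without a feature made up 10.3% against 8.63 to 9.54%, and its nuclear complex I genes summed to 2740 CPM against 2940 to 3210. Without that library 8 of 10 members were called from 30 to 60 min (median 0.28, range -0.19 to 0.38) and 8 from 60 to 120 min (median -0.28). The intruder libraries of 60 and 120 min shared no leading index. A fit with the index as a block links them through the control libraries alone and called 0 of all genes, so its 0 of 10 members says nothing about stability, and index and time cannot be told apart here. The members' log2 fold changes in that fit ran from -0.32 to 0.49 (median -0.16).

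**Figure D4:**
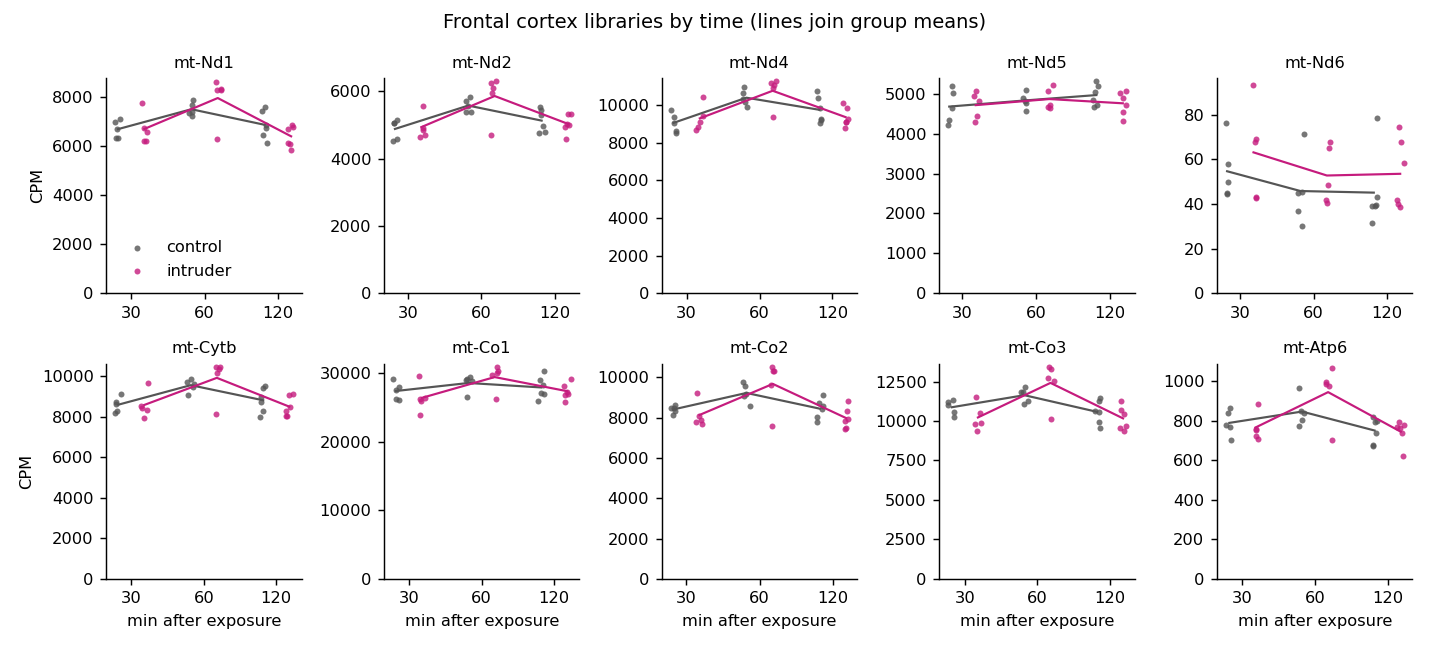
CPM of each gene (y axes, from 0) in the 32 frontal cortex libraries (points) at 30, 60 and 120 min after the exposure (x axis), with lines joining the group means of control and intruder animals. Intruder means of every gene but mt-Nd6 are higher at 60 min than at 30 min, that of mt-Nd5 by less than its error, with 1 low library in the 60 min intruder group.

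Most nuclear subunits also rose from 30 to 60 min and fell from 60 to 120 min in frontal cortex, in both conditions. From 30 to 60 min 71 of 75 were called higher in intruder animals (median log2 fold change 0.38) and 68 of 75 higher and 1 lower in controls (median 0.24). Of all genes 22.3% were called higher in intruder animals and 17.2% in controls. All 11 complex IV genes rose in both, with Cox6b1 at 0.46 and Cox4i1 at 0.42 in intruder animals, as did 34 of 36 complex I genes in intruder animals and 31 in controls. From 60 to 120 min 61 fell in intruder animals (median -0.21) and 56 in controls (median -0.19). Of all genes 10% were called lower there in intruder animals, and 15.9% were called in either direction in controls. From 30 to 120 min 38 nuclear subunits were called higher in intruder animals (median 0.15) and 3 in controls (median 0.08), where no member was called. Of all genes 17.7% and 4.42% were called at that step. The other mitochondrial protein genes tested, mt-Nd3 (0.37) and mt-Atp8 (0.41), and mt-Rnr1 (0.18) rose in intruder animals. Of the mitochondrial RNA processing genes 7 of 16 rose, with Slirp, a partner of Lrpprc in holding mitochondrial mRNAs, at 0.39, and Pnpt1, a mitochondrial exoribonuclease, fell (-0.16). Of the transcription and replication genes 1 of 17 rose, Polrmt, the mitochondrial RNA polymerase (0.16), and 1 fell, Mterf3 (-0.22). Of all genes 45.5% were called in this comparison, so the counts for that list are below the share over all genes.

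Other measures moved with time in frontal cortex alongside the members. Reads without a feature made up 10.99 to 13.19% of the row totals at 30 min, 8.63 to 10.3% at 60 min and 9.46 to 11.3% at 120 min. All 5 oligodendrocyte markers were called higher at 60 than at 30 min in controls (median 0.77) and in intruder animals (median 0.67), with summed levels of 2210 to 3690 CPM at 30 min and 3930 to 6380 at 60 min. All 4 red cell markers were called higher as well, with 56.8 to 91.7 CPM at 30 min and 91.4 to 150 at 60 min. The 5 cortex markers went the other way in sum, from 739 to 821 CPM at 30 min to 546 to 678 at 60 min in controls and from 665 to 897 to 483 to 636 in intruder animals, with no overlap in either. Of the 5, 2 were called lower in each condition and 1 higher in intruder animals. Of 5 astrocyte markers, 3 were called lower in controls (median -0.16) and 2 in intruder animals (median -0.08). Of 5 neuron markers, 1 was called higher in each condition (medians 0.01 and 0.09). Reads that aligned in more than 1 place were 10.2 to 10.46% of the row totals at 30 min and 10.74 to 11.34% at 60 min in controls, and 10.05 to 10.67% and 10.29 to 11.5% in intruder animals. The 30 and 60 min frontal cortex libraries shared no leading index and carried different header marks. The part of these in the members' change was not tested, and index and mark cannot be told apart from time.

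In amygdala and hypothalamus no member was called between any times in either condition by edgeR, and 0 or 1 of the 10 had an unadjusted p below 0.05 in each comparison. The member nearest to a call was mt-Nd6 in amygdala, which from 30 to 120 min differed by -0.54 in intruder animals (adjusted p = 0.134) and -0.71 in controls (SE 0.24, adjusted p = 0.378). Of all genes tested in amygdala, 12.9% were called over the 3 times in intruder animals (7.41% from 30 to 60 min, 15% from 30 to 120 min and 0.0695% from 60 to 120 min) and 0.232% in controls (0.133%, 0.145% and 0.0232%). In hypothalamus 1.49% were called over the 3 times in intruder animals (0.0792%, 1.93% and 0.441% for the same pairs) and 0.181% in controls (0.017%, 0.175% and 0.0396%). Few genes of any kind were thus called with time in hypothalamus. In amygdala intruder animals 7 of 75 nuclear subunits were called lower from 30 to 60 min (median -0.17), where all 10 members were above 0 (median 0.06). From 30 to 120 min 8 of 75 were called lower (median -0.13), with a members' median of -0.06. No nuclear subunit was called higher at either step. Without the 120 min intruder animal 4, 1 member was called from 30 to 120 min in amygdala. Whether the change of a member from 30 to 60 min differed between the regions was tested directly, in a test added after the change in frontal cortex had been seen. It called 0 of 10 members in controls (22.7% of all genes called; 0 members with an unadjusted p below 0.05) and 0 of 10 in intruder animals (37.4% of genes; smallest adjusted p = 0.0501; 3 with an unadjusted p below 0.05). The regions share animals, and with animal as a block the same test called 2 of 10 in intruder animals and 0 in controls. With RLE, upper-quartile or nuclear-only scaling or with voom it called 1 in intruder animals. Whether any member's change in intruder animals is called different between regions thus depends on the fit.

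Exposure to an intruder was not followed by a called change of any member. In all 9 comparisons of intruder with control animals, 0 of 10 were called by edgeR, and 170 alternatives over those comparisons, DESeq2 and limma-voom among them, gave no call. Among all genes 0.538% were called in amygdala at 120 min, 0.192% in hypothalamus at 120 min and 0 in the other 7 comparisons. Of the 90 member values 2 had an unadjusted p below 0.05, both in hypothalamus at 120 min. Averaged over the 3 times, 0 members were called in any region, and tests of whether the effect differed between times (3 regions) or between regions (3 times) called 0 as well, with 0 members under an unadjusted p of 0.05 in these tests of differences. Among all genes the averages called 0 as well, and of the tests of differences that between times called 0.0113% in hypothalamus and the others 0. For the average over times, 2 members in hypothalamus, mt-Nd5 (-0.11) and mt-Nd6 (-0.28, adjusted p = 0.999), had an unadjusted p below 0.05 and 0 in the other regions.

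The intervals below take no account of the leading index, which went with condition in some comparisons. For the 9 members other than mt-Nd6 the 81 log2 fold changes lay between -0.20 and 0.16, with standard errors of 0.05 to 0.10, and their approximate 95% intervals stayed within -0.36 to 0.33. mt-Nd6 was less precise: its 9 values ran from -0.36 to 0.26 and its intervals from -0.68 to 0.70. The medians of the 10 members were between -0.06 and 0.07. By gene, mt-Cytb stayed within -0.07 to 0.05, mt-Nd4 within -0.08 to 0.05 and mt-Co1 within -0.10 to 0.04. No member's control and intruder libraries were free of overlap in any of the 9 comparisons. Among all genes 0.776% had no overlap in amygdala at 30 min, 0.376% at 60 min and 3.13% at 120 min, 3.22%, 0.458% and 1.3% in hypothalamus and 1.03%, 0.369% and 0.246% in frontal cortex, so 0 of 10 is near the background. At 120 min in frontal cortex, control and intruder libraries shared no leading index, so index and condition cannot be told apart there, and in amygdala at 60 and 120 min only 1 library of a group shared its index with the other group. With the index as a block, 0 of 10 members were called in the other 8 comparisons, with log2 fold changes of -0.24 to 0.15 for the 9 members other than mt-Nd6 and down to -0.56 with it.

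**Figure D5:**
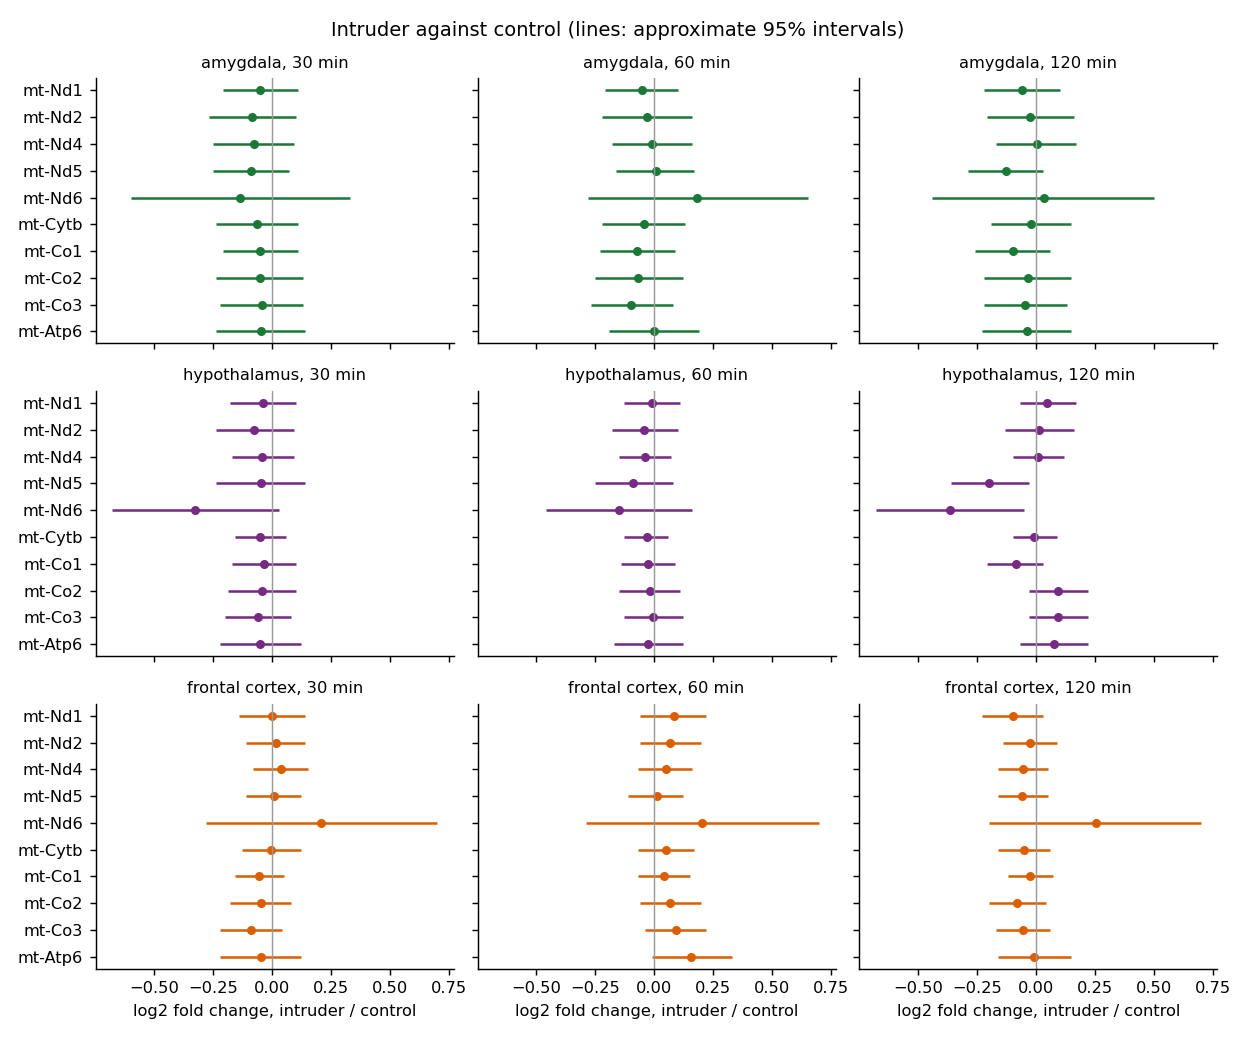
Log2 fold change of each gene in intruder against control animals (x axis; lines are approximate 95% intervals) in each region and time. All 90 values lie between -0.36 and 0.26, with the widest intervals for mt-Nd6.

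In the 60 min frontal cortex all 10 members had values above 0 (0.01 to 0.20), with mt-Atp6 at 0.16 (SE 0.087, unadjusted p = 0.0808). Without the low intruder animal 1 the median went from 0.07 to 0.14, and 0 members were called (smallest adjusted p = 0.667). In the 60 min amygdala 3 of 10 were above 0 with a median of -0.04, and the control animal 6 had the highest level of its group for 9 of 10 members. Without it the median was 0.07 and 0 were called. The sign of the median in that comparison thus rests on 1 library.

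Hypothalamus at 120 min held the lowest unadjusted p-values. mt-Nd5 had 3455, 3846, 3512, 3613 and 3509.7 CPM in controls and 2216, 3553, 3529, 3011 and 3367 in intruder animals. The groups overlap, and animal 1 is far below the rest. Its log2 fold change of -0.20 (SE 0.084, adjusted p = 0.392 by edgeR's quasi-likelihood test) became -0.10 (adjusted p = 0.546) without that animal. mt-Nd6 had 24.3, 26.25, 42.15, 28.24 and 30.6 CPM in controls and 26.6, 24.54, 24.04, 20.68 and 22.15 in intruder animals, and differed by -0.36 (SE 0.159, adjusted p = 0.402). Leaving out each library in turn gave -0.43 to -0.21. Nuclear subunits in the same comparison had 75 of 75 values above 0 with a median of 0.13, and 0 were called. Nuclear complex I genes summed to 3070 CPM in intruder animal 1 against 2340 to 2510 in the other 4 of its group. How far the nuclear values rest on that animal was not tested.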

How the data were processed

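Poly(A)-selected, stranded, single-end RNA-seq was deposited as 1 table of raw read counts per gene for 90 libraries. Per the submitters' processing notes, the authors used CASAVA 1.8.2, TopHat2 2.0.8, HTSeq 0.6.1, edgeR 3.2.4 and R 3.0.0 with the genome build NCBIM37; the strand setting of the counting and the annotation version are not given in the sources used here. The deposited counts were not normalized. The 5 summary entries of the counter (reads without a feature, not uniquely aligned and the like) were kept out of library sizes and tests.

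Counts were fitted with edgeR 4.0.16 in R 4.3.3: TMM scaling, the default filter on low counts, quasi-likelihood F tests, two-sided, with Benjamini-Hochberg adjustment over all genes tested and a threshold of 0.05. Each region was fitted with its 6 groups (17277 genes in amygdala, 17676 in hypothalamus and 17091 in frontal cortex), the intruder effect between regions within each time, and regions against each other in all 90 libraries. CPM values were scaled by TMM over all 90 libraries. Symbols were matched for 32919 of 37991 identifiers through GENCODE M21. Alternatives were other scalings, no filter, DESeq2 1.42.0, limma 3.58.1 (voom), blocks for replicate number, animal and leading index, and leaving out each library. The test was checked on simulated counts. Depth of 38601039 to 58858458 gene reads per library makes counting error small beside the spread between animals for all members.

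The members are named in every comparison. Other genes come from lists, of which up to 2 called genes in each direction with the smallest adjusted p were named, and those most like the members were the 5 with the highest correlation. The members and lists were chosen with earlier results of these data known.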

Additional observations from a re-analysis of the deposited data

Results flagged for a closer look

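A library was singled out where its gap to the nearest of its group exceeded Dixon's 95% critical value for the whole range of the group. Over 170 combinations of member and group this held for 22 values in 12 libraries, where chance alone gives about 1 in 20, or 8.5. Members of 1 library are not independent, so several values can come from 1 animal.

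The 60 min intruder frontal cortex library 1 was low for 7 members: mt-Nd1 at 6280 CPM (others 8266 to 8616), mt-Nd2 at 4710 (others 5940 to 6292), mt-Nd4 at 9376 (others 10920 to 11290), mt-Co1 at 26180 (others 29680 to 30940), mt-Co3 at 10130 (others 12550 to 13400), mt-Cytb at 8145 (others 10150 to 10460) and mt-Atp6 at 702.3 (others 975.5 to 1065). The 60 min control amygdala library 6 was high for 4: mt-Nd2 at 6402 CPM (others 4410 to 4966), mt-Nd4 at 12770 (others 8810 to 9649), mt-Nd5 at 5637 (others 3995 to 4367) and mt-Atp6 at 969.1 (others 676.6 to 719.3). Its oligodendrocyte markers summed to 4840 CPM against 2920 to 3440 in the others, and its amygdala markers to 920 against 500 to 642; their part was not tested.

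In amygdala at 120 min, mt-Nd6 was high in control 2 (62.03 CPM) and in intruder 4 (78.44), mt-Nd5 was low in intruder 6 (3797) and mt-Co3 high in intruder 3 (10030). In hypothalamus mt-Cytb was high in the 60 min control 6 (7256 CPM), and mt-Co3 in the 120 min intruder 1 (8182). In frontal cortex mt-Co2 (9242 CPM) and mt-Atp6 (885.6) were high in the 30 min intruder 5, mt-Co1 low in the 60 min control 6 (26460), mt-Nd6 high in the 120 min control 1 (78.4) and mt-Atp6 low in the 120 min intruder 6 (623.1).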

How the results depend on the processing

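Of the counts of members called under the alternatives, 976 stayed within 1.5 times the reported count and 19 moved. Many of the reported counts were 0, so the 976 say little about how stable the calls are. Of values for single members, 786 kept direction and side of the threshold, 21 lost and 1 gained a call and 4 changed sign. The sign changes were all of mt-Cytb between amygdala and frontal cortex, which was 0.005 and became -0.003 with RLE scaling, -0.005 without the filter, -0.042 without 30 min (0.039 without 60 min) and -0.006 without 120 min. In frontal cortex controls the test over the 3 times called 1 member, 0 without the filter, 2 with DESeq2 and 0 to 2 leaving out single libraries, and 60 against 30 min called 2 members and 1 to 3 leaving out single libraries. For intruder animals, 120 against 60 min called 7, 6 to 8 leaving out single libraries and 0 with the index block, which links these groups only through controls, and the change from 30 to 60 min between regions called 0, 1 with RLE, upper-quartile or nuclear-only scaling or voom and 2 with animal as block. In amygdala intruder animals the test over times and 120 against 30 min called 0, and 0 to 1 leaving out single libraries, with the 1 from leaving out 120 min intruder 4. The index block could not be fitted for intruder against control at 120 min in frontal cortex. The cause of other changes was not tested.

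Replicate numbers do not pair the libraries: deviations from group means of same-numbered libraries correlated between -0.66 and 0.69 over 16607 genes, and in 0 of 9 sets did every pair exceed 0.1. With the replicate number as a block, 60 against 30 min in frontal cortex controls called 3 members instead of 2, and the other counts of calls kept within 1.5 times.

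Precision is limited by the number of animals, with 3 in the hypothalamus 30 min controls, and for mt-Nd6 by its low and variable level. Of the other scalings, the one that moved the median of all genes furthest took it from 0.02 to 0.082 (upper-quartile, hypothalamus against frontal cortex).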

Other observations

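The same animal could stand out in more than 1 region. The deviation of the summed members from their group mean (log2) correlated between hypothalamus and amygdala of 28 animals at r = 0.66 (Spearman's rho 0.57; 0.61 without the 2 animals farthest from the median), against r = -0.17 between hypothalamus and frontal cortex (n = 28) and r = 0.01 between amygdala and frontal cortex (n = 30). These values are descriptions, and signs matched in 17 of 28 animals in the first pair. The 60 min control animal 6 had 9.48% of gene reads in the members in amygdala and 6.41% in hypothalamus, the highest of its group in both, and 7.84% in frontal cortex, 0.06 below its group mean on the log2 scale.

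The 120 min intruder hypothalamus library 1 had an unusual balance of members. Of the 90 libraries it had the lowest share of member reads in mt-Nd5 (4.08%, next lowest 4.89%) and in mt-Nd2 (5.61%, next 5.83%), and the highest in mt-Co2 (12.0%, next 11.4%) and in mt-Co3 (15.1%). In its group it also had the most reads on nuclear complex I genes (3070 CPM, others 2340 to 2510) and the fewest reads without a feature (10.047%, others 12.1 to 12.6%). This was noticed after the values were seen.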
